A study of Mus musculus with 9 samples.

Results

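Keratin and desmosome genes were examined in the embryonic mouse lens with and without the transcription factor Sip1, the protein product of Zeb2. The group consists of Krt8, Krt18, Krt40, Dsp and Dsc2, found by exact gene symbol, which makes 5 of the 190 genes listed for the conditional knockout and mixed wild type libraries. Only Krt40 was also among the 7676 genes listed once each for the inbred wild type. RNA was sequenced from lenses at 15.5 days post conception in 9 libraries, 3 for each group, with 30 lenses pooled in each library. The conditional knockout (cKO) lenses carried Sip1 flox/flox alleles and the MLR10Cre transgene, whose modified alpha A crystallin promoter drives Cre recombinase in lens epithelial and fibre cells. Mixed wild type lenses had the same Sip1 flox/flox alleles with no Cre, and both groups had a mixed strain background. The inbred wild type lenses came from the strain C57Bl/6<har>, for which the labels give no floxed allele and no Cre. The cKO and mixed wild type groups therefore differ in the transgene as well as in Sip1, and in sequencing depth, and the part of each in a difference cannot be told apart.

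Keratins are the intermediate filament proteins of epithelia. A filament is built from obligate pairs of a type I and a type II keratin, and Krt8 (type II) pairs with Krt18 (type I) in simple epithelia. Desmosomes are the junctions that anchor keratin filaments at the cell membrane: desmosomal cadherins such as Dsc2 (desmocollin 2) bridge neighbouring cells, and Dsp (desmoplakin) ties their cytoplasmic plaque to the filaments. Surface ectoderm, from which the lens placode arises, is rich in both, whereas lens fibre cells rely on vimentin and on the beaded filament proteins Bfsp1 and Bfsp2.

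The 5 genes were chosen because they differed between cKO and mixed wild type lenses, and the study's list of 190 genes was itself selected on those libraries. The smallest fold between these groups in the list, by means of the deposited normalized values, was 2.505. Among the 5 genes Dsc2 lay closest to that limit, at 2.72-fold. Differences between cKO and mixed wild type are therefore given here as a description, without a test. Levels are in RPKM (read counts normalized to exon length and to mapped reads). Mapped reads, recovered from the steps between RPKM values, numbered 25.9 to 27.4 M (mega) in cKO libraries, 38.7 to 44.1 M in those of mixed wild type and 14.1 to 16.7 M in those of inbred wild type.

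Zeb2 and its family bind sequences that contain CACCT, often as the E-box CACCTG. Promoters are shown because 4 of the genes share such letters close to their start while their levels differed between the groups in opposite directions. The promoter of Dsc2 was not examined. The sequences are the 250 bases before the RefSeq start of Krt8, Krt18, Krt40 and Dsp (GRCm38.p6), written along the gene's own strand, with CACCT or its reverse complement AGGTG in capitals and the following G of CACCTG in capitals too.
Krt8, chr15:102004343-102004592, minus strand: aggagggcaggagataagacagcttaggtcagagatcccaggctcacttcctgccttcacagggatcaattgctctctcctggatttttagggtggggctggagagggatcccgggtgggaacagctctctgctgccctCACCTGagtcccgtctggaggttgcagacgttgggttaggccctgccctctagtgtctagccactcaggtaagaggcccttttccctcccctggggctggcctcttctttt
Krt18, chr15:102027966-102028215, plus strand: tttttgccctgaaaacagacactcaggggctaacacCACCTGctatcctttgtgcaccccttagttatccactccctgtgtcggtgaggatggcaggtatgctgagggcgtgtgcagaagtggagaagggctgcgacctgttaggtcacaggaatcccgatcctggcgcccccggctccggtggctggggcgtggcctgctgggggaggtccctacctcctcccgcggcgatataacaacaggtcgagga
Krt40, chr11:99543221-99543470, minus strand: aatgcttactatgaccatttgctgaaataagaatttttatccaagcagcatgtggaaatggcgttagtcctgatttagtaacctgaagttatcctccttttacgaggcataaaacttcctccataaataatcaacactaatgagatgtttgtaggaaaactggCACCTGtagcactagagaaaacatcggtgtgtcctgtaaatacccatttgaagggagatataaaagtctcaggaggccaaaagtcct
Dsp, chr13:38151044-38151293, plus strand: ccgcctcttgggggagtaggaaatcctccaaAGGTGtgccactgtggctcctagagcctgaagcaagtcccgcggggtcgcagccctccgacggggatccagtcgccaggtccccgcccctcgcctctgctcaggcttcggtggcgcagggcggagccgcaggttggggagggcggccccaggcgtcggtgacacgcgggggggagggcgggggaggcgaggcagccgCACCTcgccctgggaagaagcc

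CACCTG occurred once in the promoters of Krt8, Krt18 and Krt40, in each case on the strand of the gene. It began 111 bases before the start of Krt8, 214 before that of Krt18 and 87 before that of Krt40. The Dsp promoter held CACCT without the G, once on its own strand from 22 bases before the start and once on the opposite strand, from 219 bases before it. On either strand CACCT was found in 46.0% of the 32851 RefSeq promoters of this length, and CACCTG, which is contained in that count, in 17.2%. Over the 177 promoters that matched 139 of the listed genes the shares were 49.7% for CACCT and 16.4% for CACCTG. The letters stood before Krt40, which was lower in cKO lenses, as well as before genes that were higher, and whether any is bound was not measured. The promoters differed in base composition, from 38.4% G and C in Krt40 to 72.4% in Dsp, with 58.0% in Krt8 and 60.4% in Krt18. Krt8 and Krt18 are neighbours on chromosome 15, on opposite strands and with no protein-coding RefSeq gene between their starts. Krt40 lies on chromosome 11, Dsp on chromosome 13 and Dsc2 on chromosome 18.

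Krt8 had the largest difference of the 5 genes. Its level was 4.06, 5.80 and 6.12 RPKM in the cKO libraries, against 0.072, 0.064 and 0.088 RPKM in the mixed wild type libraries. Every cKO library was at least 46.2-fold above every mixed wild type library. Krt8 averaged 5.33 ± 1.11 RPKM in cKO and 0.0747 ± 0.0122 RPKM in mixed wild type lenses (SD, n = 3 each), a ratio of means of 71.4. The wild type values rest on very few reads. The RPKM values corresponded to 201, 271 and 287 reads of Krt8 in the cKO libraries and to 5, 5 and 7 reads in the mixed wild type libraries. From the summed 759 and 17 reads the fold, scaled to mapped reads, was 70.9, with an exact 95% interval of 44.0 to 122 that covers counting error only. Krt8 was thus near the limit of detection in wild type lenses of this background, and the size of its fold is uncertain.

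Krt18, the type I partner of Krt8, had 4.51, 5.14 and 6.16 RPKM in the cKO libraries, against 0.591, 0.811 and 0.340 RPKM in the mixed wild type libraries. The groups did not overlap, with every cKO library at least 5.56-fold above every wild type library. Krt18 averaged 5.27 ± 0.832 RPKM in cKO and 0.581 ± 0.236 RPKM in mixed wild type lenses (SD, n = 3 each), a ratio of 9.07. The wild type libraries scattered widely around a low level, with 32, 49 and 21 reads, while the cKO libraries held 173, 186 and 224 reads. From the summed 583 and 102 reads the exact 95% counting interval of the fold was 7.34 to 11.3. It covers counting error only and leaves out the scatter between libraries, so the fold is less certain than this interval.

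Krt40, a type I keratin described in human as a hair keratin, was the gene of the group that was lower in cKO lenses. Its level was 1.16, 1.17 and 1.31 RPKM in the cKO libraries and 3.15, 3.34 and 3.61 RPKM in the mixed wild type libraries. The lowest wild type library was 2.40-fold above the highest cKO library. The means were 1.21 ± 0.0844 RPKM in cKO and 3.37 ± 0.230 RPKM in mixed wild type lenses (SD, n = 3 each), so that wild type was 2.77-fold higher. Reads numbered 42, 40 and 45 in cKO libraries against 161, 190 and 210 in mixed wild type libraries, and the exact 95% counting interval for the fold by which mixed wild type exceeded cKO was 2.29 to 3.40.

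Dsp, which links keratin filaments to the desmosomal plaque, had 2.45, 2.77 and 2.58 RPKM in the cKO libraries, against 0.467, 0.347 and 0.328 RPKM in the mixed wild type libraries. Every cKO library lay at least 5.25-fold above every wild type library, and the means of 2.60 ± 0.158 RPKM in cKO and 0.381 ± 0.0754 RPKM in mixed wild type (SD, n = 3 each) gave a ratio of 6.83. Its long transcript gathers many reads at such levels, about 640 to 690 reads per cKO library and about 140 to 170 per mixed wild type library if the longest GENCODE transcript is taken as its length. Dsp was therefore counted more precisely than Krt8 and Krt18 although its RPKM was lower than theirs in cKO.

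Dsc2, the desmosomal cadherin, had 3.91, 5.18 and 4.73 RPKM in the cKO libraries, against 1.58, 1.28 and 1.30 RPKM in the mixed wild type libraries. The lowest cKO library was 2.48-fold above the highest wild type library. Dsc2 averaged 4.61 ± 0.646 RPKM in cKO and 1.38 ± 0.167 RPKM in mixed wild type lenses (SD, n = 3 each), a ratio of 3.33. Among the 4 genes that were higher in cKO it had the highest wild type level and the smallest ratio.

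**Figure D1:**
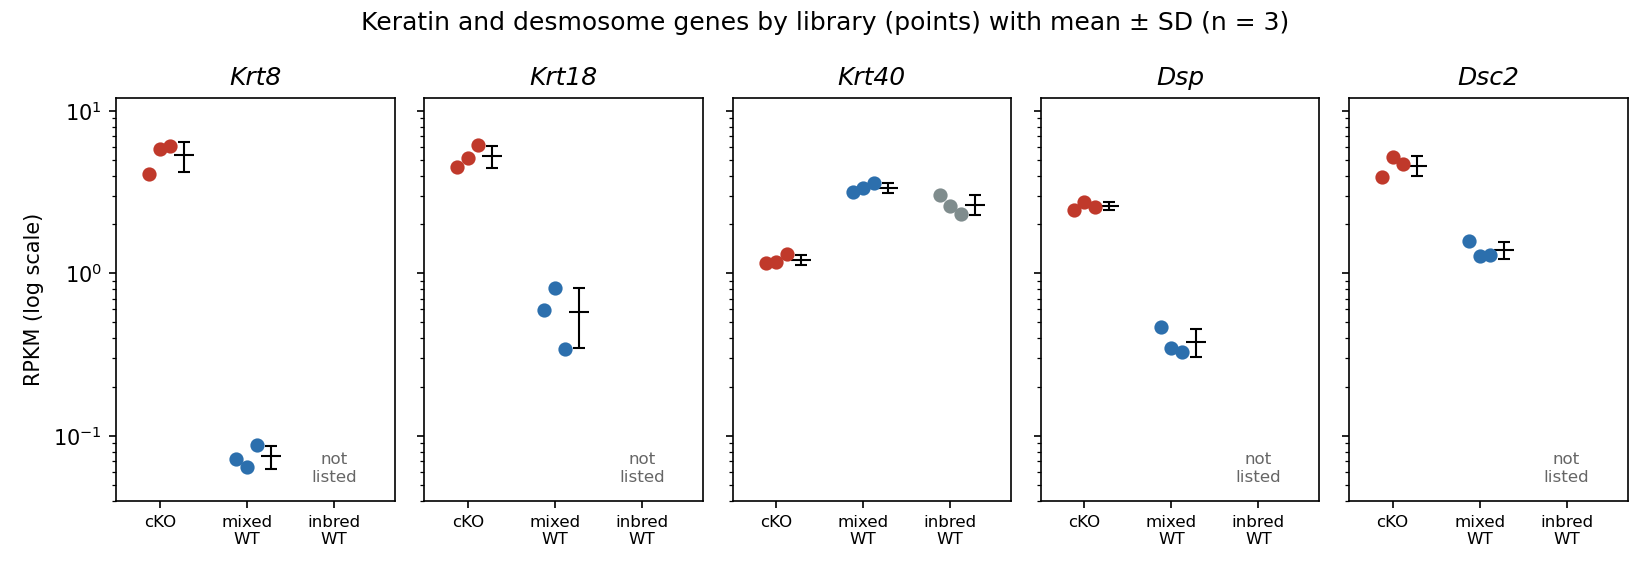
RPKM of each gene (vertical axis, log scale) in every library of cKO (red), mixed wild type (blue) and inbred wild type (grey); points are libraries, and the bar beside them is the mean with its SD (n = 3). Krt8, Krt18, Dsp and Dsc2 sit higher in cKO with no overlap, Krt40 sits lower, and Krt40 alone is listed in the inbred libraries.

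Log2 fold changes were taken on the log2(RPKM + 0.5) scale, on which differences of genes with low levels come out too small. The log2 fold change of cKO over mixed wild type was 3.32 (SE 0.14) for Krt8, 2.43 (SE 0.16) for Krt18, 1.82 (SE 0.10) for Dsp, 1.43 (SE 0.12) for Dsc2 and -1.17 (SE 0.095) for Krt40. Limma, fitted over all 190 genes, called all 5, as it called 99.5% of the listed genes, and the groups of libraries were separate in all 5 and in 100% of the 190. Of the listed genes 54.2% were called higher and 45.3% lower in cKO, and 54.2% lay wholly above and 45.8% wholly below the mixed wild type libraries. The list was selected for differences between these libraries, so nothing is read from these counts. With quantile normalization over the 190 genes, which moved their median log2 fold change to 0.19 from 1.37, Dsc2 was no longer called (log2 fold change 0.26) and Dsp was at 0.37. This scaling gives every library the same distribution, which libraries need not share over a list selected for differences. The direction of Krt8, Krt18, Dsp and Dsc2 was also nearly fixed by the listing: 60 of the 62 listed genes that are missing from the inbred list had their higher level in cKO, whereas 43 of the 128 genes inside it did. The lowest mean in the higher group was 2.14 RPKM among the 190, and genes of the inbred list averaged 2 RPKM or more. By log2 fold change Krt8 ranked 14 of 190 from the top, Krt18 32, Dsp 62, Dsc2 92 and Krt40 138. The median absolute log2 fold change of the listed genes was 1.64, so Krt8, Krt18 and Dsp were above it and Dsc2 and Krt40 below.

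**Figure D2:**
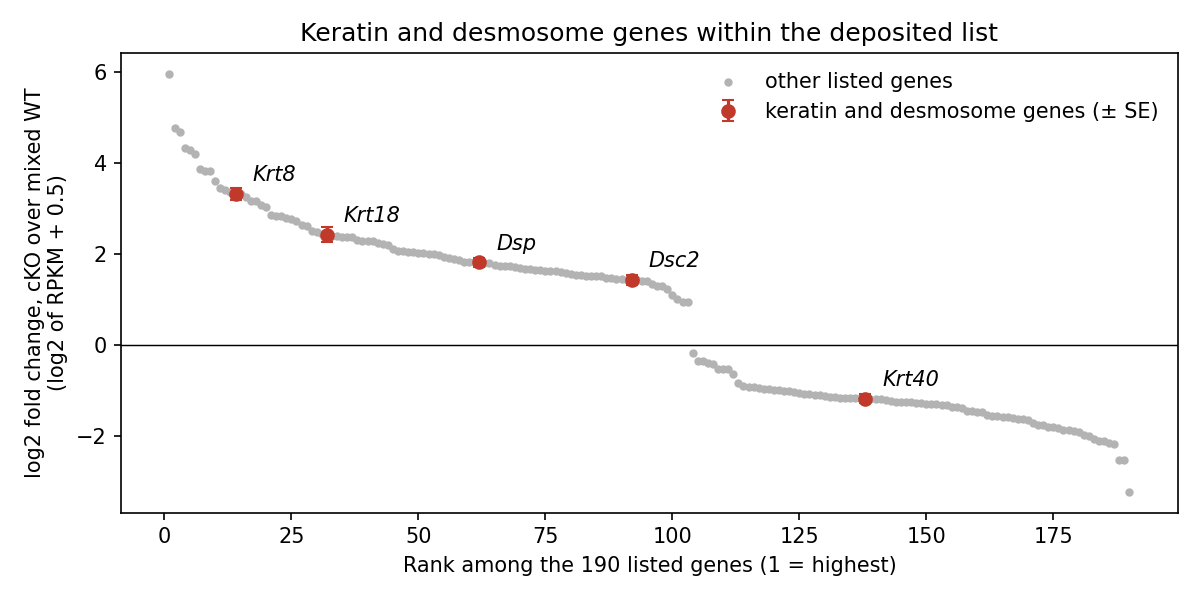
Log2 fold change of cKO over mixed wild type on the log2(RPKM + 0.5) scale (vertical axis) of the 190 listed genes in order of rank (horizontal axis); grey points are the other genes, and red points with SE bars are the keratin and desmosome genes. Krt8, Krt18, Dsp and Dsc2 lie at 3.32, 2.43, 1.82 and 1.43 and Krt40 at -1.17, within a list that has hardly any gene near 0.

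The listed keratins differed in their proportions between the groups. Krt40 supplied 11.9%, 9.67% and 9.65% of the summed RPKM of Krt8, Krt18 and Krt40 in the cKO libraries, against 82.6%, 79.2% and 89.4% in the mixed wild type libraries. Krt8 supplied 44.9 ± 3.10% of the sum in cKO and 1.86 ± 0.331% in mixed wild type lenses, and Krt18 44.7 ± 2.03% in cKO and 14.4 ± 5.52% in mixed wild type (SD, n = 3 each). The sum itself was 9.73, 12.1 and 13.6 RPKM in the cKO libraries and 3.82, 4.21 and 4.04 RPKM in the mixed wild type libraries. Lower Krt40 thus stood beside a sum of these 3 keratins that was higher in each cKO library than in any mixed wild type library. The sum holds only keratins chosen for their differences, so it is not the keratin total of the lens. Whether more cells held these transcripts or each cell held more of them cannot be told apart in RNA from whole lenses.

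The keratin pair was close to equal in RPKM where it was high. Per library, the ratio of Krt8 to Krt18 RPKM was 0.901, 1.13 and 0.994 in cKO and 0.122, 0.0789 and 0.259 in mixed wild type lenses. The mean ratio was 1.01 ± 0.115 in cKO and 0.153 ± 0.0940 in mixed wild type (SD, n = 3 each). Both genes were chosen for their differences between these groups, so nothing is read from the separation of the ratios. Type I keratins together (Krt18 and Krt40) were 1.24 ± 0.156 times the type II keratin Krt8 in cKO lenses and 53.9 ± 10.1 times in mixed wild type lenses, counting only the 3 listed keratins. Both mixed wild type ratios that involve Krt8 rest on its 5, 5 and 7 reads, so their size is uncertain. For the desmosomal pair, the ratio of Dsc2 to Dsp RPKM was 1.59, 1.87 and 1.84 in cKO libraries and 3.38, 3.68 and 3.96 in mixed wild type libraries. Both genes were higher in cKO, and Dsp more so.

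**Figure D3:**
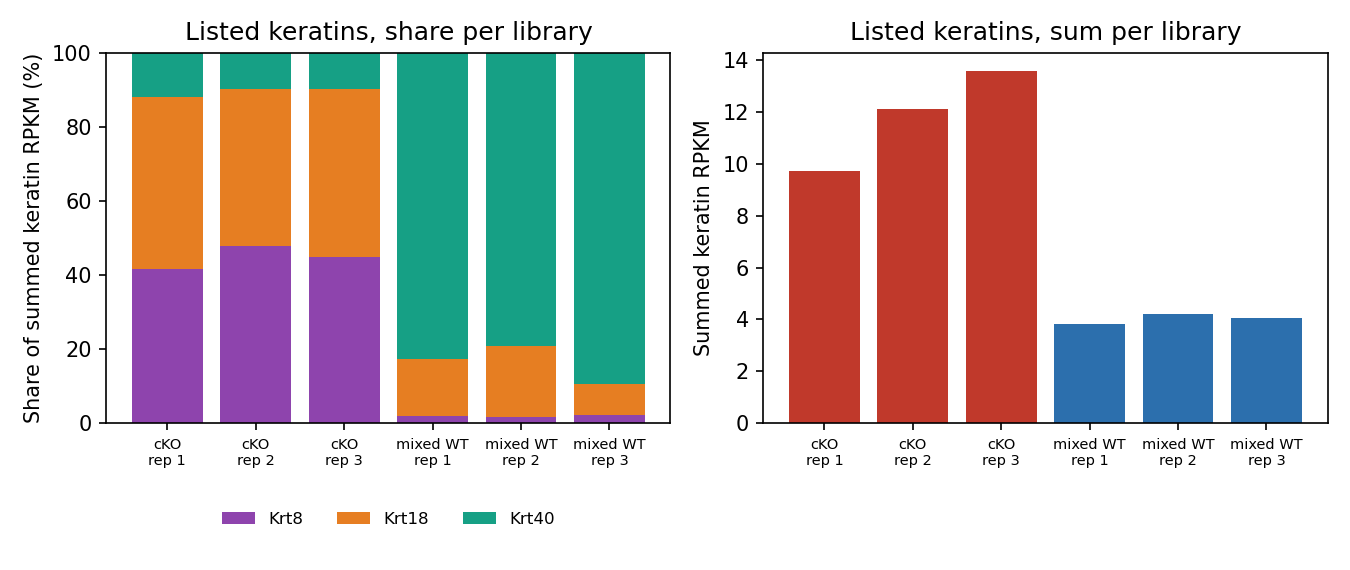
Left, the share of Krt8, Krt18 and Krt40 in their summed RPKM (vertical axis, percent) in each cKO and mixed wild type library; right, the summed RPKM of the 3 keratins in the same libraries. Krt40 makes up 79.2% to 89.4% of the sum in mixed wild type and 9.65% to 11.9% in cKO, while the sum is 9.73 to 13.6 RPKM in cKO and 3.82 to 4.21 RPKM in mixed wild type.

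The Krt8 to Krt18 ratio depended on which deposited value was used. Computed from the authors' normalized expression values, which have no stated unit, it averaged 0.615 ± 0.0767 in cKO and 0.109 ± 0.0456 in mixed wild type lenses (SD, n = 3 each). RPKM is scaled to exon length (1805 bases for Krt8 and 1400 for Krt18), whereas no such scaling is stated for the normalized values. The ratio from RPKM and that from normalized values are therefore not like measures. The Krt8 fold of cKO over mixed wild type was 48.1 in normalized values, against 71.4 in RPKM, and that of Krt18 was 7.52, against 9.07. Dsp was at 5.61 against 6.83 and Dsc2 at 2.72 against 3.33, so a lower fold was not particular to the keratins. For Krt40, mixed wild type exceeded cKO 3.41-fold in normalized values and 2.77-fold in RPKM. The median normalized value per read over listed genes was 0.888 to 0.956 in cKO and 0.677 to 0.737 in mixed wild type libraries. In cKO libraries 1 read implied by RPKM corresponded to a normalized value of 0.412 to 0.461 for Krt8, to 0.877 to 0.955 for Krt18 and to 0.907 to 0.956 for Krt40. The median over listed genes with an exon length and at least 20 reads was 0.888 to 0.956 in the same libraries, with a lower quartile of 0.600 to 0.647. Krt8 thus had a low normalized value for its RPKM. Krt8 also shares sequence with other genes: 32.3% of the 31-base words of its longest transcript occur in transcripts of other genes, nearly all of them (32.2% of its words) in the processed pseudogene Krt8-ps. The same share was 11.4% for Krt18, through 3 processed pseudogenes, 3.18% for Krt40, through other keratins, 0.109% for Dsc2 and 0.0209% for Dsp. Reads of Krt8 and Krt8-ps cannot be told apart in the shared stretch, so levels of Krt8 are uncertain. For Krt18 this depends on the word length: with 50-base words the share was 0.72% for Krt18 and 26.9% for Krt8. The part of this sharing in the normalized values was not tested.

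**Figure D4:**
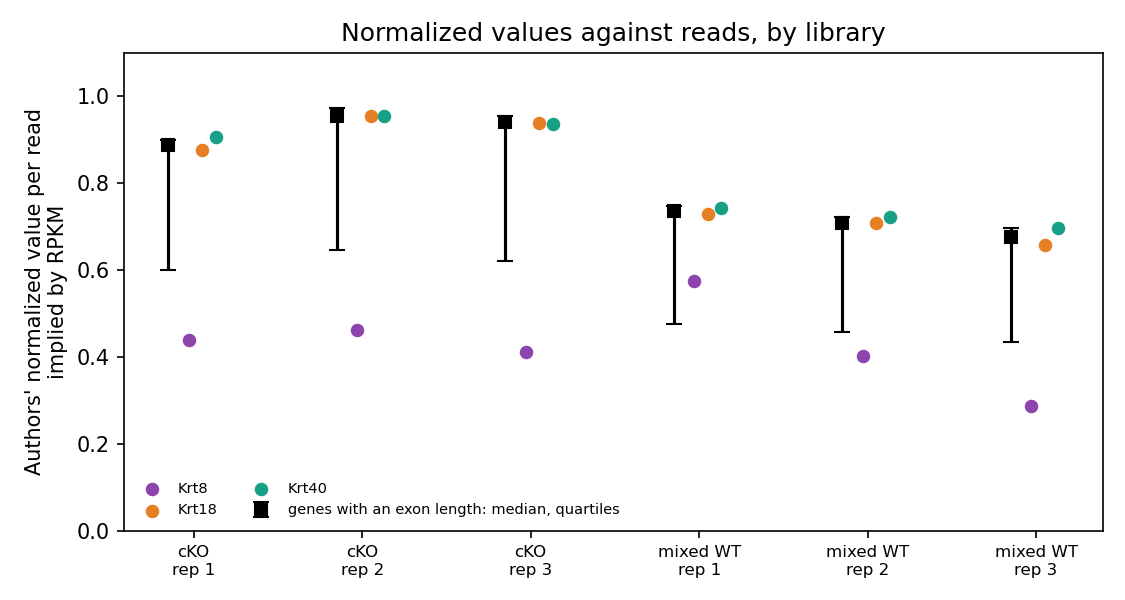
The authors' normalized expression value divided by the reads that RPKM implies (vertical axis), for Krt8, Krt18 and Krt40 in each cKO and mixed wild type library; black squares with bars are the median and quartiles over listed genes with an exon length. Krt8 lies at 0.412 to 0.461 in cKO, below the lower quartile of 0.600 to 0.647, whereas Krt18 and Krt40 lie close to the median.

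Within the cKO group the genes differed in how closely the libraries agreed. The coefficient of variation of RPKM was 20.8% for Krt8, 15.8% for Krt18, 14.0% for Dsc2, 6.95% for Krt40 and 6.08% for Dsp, beside a median of 8.06% over the 190 genes. In mixed wild type it was 40.6% for Krt18, 19.8% for Dsp, 16.4% for Krt8, 12.1% for Dsc2 and 6.82% for Krt40, beside a median of 9.53%. In cKO replicate 1 all 5 genes had their lowest cKO value, Krt40 included, while 43.7% of the 190 genes were lowest there. In mixed wild type no single library was lowest for more than 2 of the 5 genes. Without cKO replicate 1 the log2 fold changes were 3.49 for Krt8, 2.53 for Krt18, 1.85 for Dsp, 1.54 for Dsc2 and -1.15 for Krt40.

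Krt40 alone could be set against the inbred wild type. The cKO and mixed wild type libraries both took part in its choice, so these comparisons too are a description, without a test. Krt40 had 3.15, 3.34 and 3.61 RPKM in the mixed wild type libraries, against 3.04, 2.60 and 2.30 RPKM in the inbred libraries (inbred mean 2.65 ± 0.371, SD, n = 3, from 67, 56 and 43 reads). The inbred level was above only 9.11% of the genes of the inbred list. Mixed wild type was 1.27-fold higher on average, with all 3 libraries above the 3 inbred ones by a narrow margin. The log2 fold change of mixed over inbred wild type was 0.30 (SE 0.13), in a comparison where limma called 49.2% of the 128 shared genes (30.5% higher and 18.8% lower in mixed wild type). Groups did not overlap in 57% of the shared genes, 35.2% with mixed wild type higher and 21.9% with it lower. Median centring gave 0.15 and quantile normalization 0.55, and with 1 library left out the value was 0.22 to 0.39. The wild types differ in strain, floxed alleles, depth and file type, which cannot be told apart here.

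The cKO level of Krt40 was also below the inbred level. All 3 cKO libraries, at 1.16, 1.17 and 1.31 RPKM, lay below the 3 inbred libraries, and inbred wild type was 2.18-fold higher on average. The log2 fold change of cKO over inbred wild type was -0.87 (SE 0.14). In this comparison limma called 93.8% of the 128 shared genes, 32.8% higher and 60.9% lower in cKO. The cKO libraries took part in the choice of Krt40, so no call is read for it. Groups did not overlap in 93.8%, with cKO higher in 32% and lower in 61.7%. Quantile normalization over the shared genes removed this difference (log2 fold change 0.03), while under median centring it was -1.22. Both scalings align libraries over genes from a list selected for differences, in which libraries need not share a median or distribution. By mean RPKM Krt40 was lowest in cKO, then inbred and then mixed wild type lenses.

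Other genes of the keratin and junction families were largely absent from the lists compared. Of 51 keratin genes 3 were among the 190, and of 15 desmosome genes 2, in both cases the genes described above, which were chosen for their differences. No gene was listed in these groups from 10 symbols of hemidesmosome and plakin genes, 16 other intermediate filament genes, 19 adherens junction genes, 19 tight junction genes, 12 genes of epithelial-mesenchymal transition and 40 further keratinocyte and surface ectoderm genes. Of 14 lens epithelium genes none was listed. Of 22 lens fibre genes 5 were, with 2 called higher (Crygs, a crystallin gene, and Lgsn, lengsin) and 3 lower in cKO (Dnase2b, the nuclease that removes fibre cell DNA, Birc7 and Lctl), beside 54.2% called higher and 45.3% called lower among all 190. Lgsn showed a contrast like that of Krt8, with 3.63 ± 0.767 RPKM in cKO and 0.0637 ± 0.0244 RPKM in mixed wild type lenses (SD, n = 3 each). A gene outside the 190 has no value here in cKO or mixed wild type lenses, so these counts do not show that it stayed level. Of 12 markers of keratinocytes and surface ectoderm none was among the 190, and in the inbred list only Cdh1 (E-cadherin) was found, at 33.6 to 37.1 RPKM, with Trp63, Krt5 and Krt14 not listed. Whether cells of another epithelium contributed to the cKO values was not tested. The inbred libraries held all 7 lens fibre markers, summing to 132000 to 143000 RPKM and led by Cryaa and Cryga, and all 5 lens epithelium markers, summing to 444 to 517 RPKM with Sfrp1 and Foxe3 highest. None of these 12 lens markers was among the 190, nor was Zeb2, so neither the tissue nor the knockout could be checked by them in cKO and mixed wild type libraries.

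In the inbred lens, the listed keratins were far below Vim, Bfsp1, Bfsp2 and Synm, and about level with Lmna. Besides Krt40 a single keratin was listed, Krt10, a type I keratin of differentiating epidermis, at 2.58, 2.34 and 2.60 RPKM, about the level of Krt40 (0.959 ± 0.149 times it, SD, n = 3). The desmosome list was represented by Pkp2, a plaque protein, at 9.13, 8.85 and 9.21 RPKM and by Perp, a desmosomal membrane protein, at 4.70, 5.29 and 5.17 RPKM. Dsp and Dsc2 were not listed there, and the list began at a mean of 2 RPKM. Vim, the filament gene of both lens cell types, stood 275 ± 32.3 times above Krt40 per length, and the beaded filament genes Bfsp1 and Bfsp2 stood 564 ± 82.4 and 550 ± 40.2 times above it (SD, n = 3). Synm (synemin) was 19.4 ± 5.04 times and Nes (nestin) 5.10 ± 1.19 times as high as Krt40. The nuclear lamin genes Lmnb1, Lmnb2 and Lmna ranged down from 28.1 to 30.7 RPKM for Lmnb1 to 2.45 to 2.65 RPKM for Lmna, with Lmnb2 at 5.37 to 5.76 RPKM. Among plakins, the cytolinkers to which Dsp belongs, Plec was at 26.0 to 34.8 RPKM, Dst at 10.9 to 16.4 RPKM and Macf1 at 9.52 to 12.2 RPKM, and the hemidesmosomal integrin gene Itga6 at 24.2 to 30.0 RPKM.

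The genes whose levels were most like each gene were taken as those with the smallest root mean square difference of log2(RPKM + 0.5) over the 6 cKO and mixed wild type libraries. For Krt8 these were Cxcl14, a chemokine gene (difference 0.10), Sstr1, a somatostatin receptor gene (0.21), and Aldh1a3, an enzyme gene of retinoic acid synthesis (0.23), beside a median of 2.55 over the other listed genes. Cxcl14 averaged 5.08 ± 0.598 RPKM in cKO and 0.0790 ± 0.0265 RPKM in mixed wild type lenses (SD, n = 3 each), close to Krt8 in both groups. Krt18 was nearest to Trim55, a muscle RING finger gene (0.22), Entpd3, an ectonucleotidase gene (0.28), and the acetyl-CoA synthetase gene Acss2 (0.32). Dsp was nearest to the splicing regulator gene Rbm20 (0.19), the extracellular matrix gene Fras1 (0.19) and the ribonuclease gene Rnase4 (0.20). Dsc2 was nearest to Mpp7, a membrane scaffold gene (0.10), Gpd2, a mitochondrial dehydrogenase gene (0.12), and the spectrin gene Spna1 (0.13). Krt40 was nearest to Cyb5r2, a cytochrome b5 reductase gene (0.16), Cyp7b1, an oxysterol hydroxylase gene (0.23), and Elovl4, a fatty acid elongase gene (0.23). No keratin or desmosome gene was among the nearest 3 of another. They are only 5 of the 190 genes, and the measure follows level, so nothing is read from this.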

How the data were processed

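Per the labels' protocols, lens RNA was extracted with a column system and Illumina TruSeq libraries were prepared. The submitters' processing notes name CASAVA 1.8.2. Aligner, annotation and genome build: not given in the sources used here. For each gene and library the deposited tables hold, per the file headers, RPKM and a normalized expression value (a score with no stated unit), both made by the authors, and for inbred libraries the exon length. Of 7700 inbred rows, 24 with 12 repeated symbols were left out. The genes and lists were chosen with earlier results of these data known.

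Depth was the smallest value at which RPKM times exon length gave whole reads (100% of genes under 3000 reads with an exon length under 3000 bases, within 0.1 reads). For Krt8, Krt18 and Krt40, 1 exon length within 25% of the longest GENCODE transcript gave whole reads in all 6 libraries (1805, 1400 and 1320 bases; the last is the deposited one). Intervals cover counting error only. Limma 3.58.1 (R 4.3.3), with a mean-variance trend, was run on log2(RPKM + 0.5) for genes averaging at least 1 RPKM in the 6 libraries compared. Benjamini-Hochberg adjustment was used at 0.05. Limma replaces a count test, as RPKM is not a count. It was also run on simulated data in which most genes did not differ. The listed genes were selected for differences, so that run does not show how the calls behave here. The labels call the 3 libraries of a genotype independent biological replicates, and p-values measure the spread between them. Named were the 5 genes, list genes present in cKO and mixed wild type, inbred-only keratin, desmosome, plakin and filament genes, the highest 3 of other lists, and the nearest 3 genes by level. Alternatives were other scalings, pseudocounts, filters, no trend, a joint fit, the replicate block and leaving out each library. Shared words come from GENCODE M21 (GRCm38) and promoters from RefSeq (GRCm38.p6). For the 5 genes, promoters on chromosome 18, where Dsc2 lies, were not used, so those of 4 genes are shown. The shares over all promoters did not leave that chromosome out. Python 3.11.15 was used otherwise.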

Additional observations from a re-analysis of the deposited data

How the results depend on the processing

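The direction of all 5 genes in cKO against mixed wild type held under every setting in which they were fitted: other scalings, pseudocounts, filters, no trend, the replicate block and each library left out. The genes were chosen for this difference, from a list with no fold under 2.505 in normalized values. Their direction was thus nearly fixed in advance, and nothing is read from its stability. Dsp did not pass the filter of 2 RPKM, and the joint fit of 9 libraries could hold only Krt40. With median centring over the 190 genes, which moved the median log2 fold change to 0.49 from 1.37, the values were 2.44 for Krt8, 1.55 for Krt18, 0.93 for Dsp, 0.55 for Dsc2 and -2.06 for Krt40. With quantile normalization they were 2.24, 1.17, 0.37, 0.26 and -2.33 in the same order, and Dsc2 was no longer called. Over a list selected for differences, libraries need not share the median or distribution that these scalings impose. A pseudocount of 0.1 gave 4.94 for Krt8 and one of 1 gave 2.54. Krt40 in cKO against inbred wild type turned to 0.032 with quantile normalization; the cause was not tested. Over all 190 genes 189 were called in cKO against mixed wild type, against 171 with quantile normalization, 186 with median centring and 189 to 190 with a library left out. For cKO against inbred wild type 120 of 128 genes were called, against 105 with quantile normalization and 122 with median centring. For mixed against inbred wild type 46 to 62 genes were called with a library left out, against 63 with all, and 39 higher and 24 lower calls became 28 and 29 with quantile normalization and 23 and 37 with median centring. Replicate numbers were shared across groups, but same-numbered cKO and mixed wild type libraries correlated at -0.10 to -0.15 in their deviations, mixed and inbred ones at -0.15 to -0.52, and cKO and inbred ones at -0.01, 0.24 and 0.20. As not every pair exceeded 0.1 in any comparison, the numbers were not taken to pair libraries. With the replicate block 189 genes were called in cKO against mixed wild type, 47 in mixed against inbred wild type and 120 in cKO against inbred wild type. With 50-base words the shared share was 26.9% for Krt8, 0.720% for Krt18 and 0 for Krt40, Dsp and Dsc2. Depth limits Krt8 in mixed wild type, where each library held 5 to 7 reads.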

Other observations

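The inbred list, which began at a mean of 2 RPKM, held most genes of the adherens junction, the junction tied to actin filaments. Of 19 such genes 16 were listed, with Ctnnb1 (beta-catenin) at 134, 144 and 147 RPKM, Cdh2 (N-cadherin) at 67.1, 74.0 and 77.4 RPKM and Ctnna1 (alpha-catenin) at 54.6, 54.3 and 51.8 RPKM. Of 15 desmosome genes 2 were listed there, and of 51 keratins 2. Genes at lower levels are not listed, so these counts do not show which genes were absent from the lens. Of 19 tight junction genes 5 were listed, led by Tjp1 at 66.7, 79.2 and 78.6 RPKM, Jam3 at 39.0, 38.2 and 38.8 RPKM and Cldn12 at 8.28, 8.75 and 10.2 RPKM. Of 12 genes of epithelial-mesenchymal transition 5 were listed, with S100a4 at 25.2, 27.0 and 21.8 RPKM, Fn1 (fibronectin) at 8.75, 9.13 and 12.2 RPKM and Zeb2 at 5.16, 5.96 and 6.31 RPKM. None of the junction and transition genes named here had a value in the cKO and mixed wild type libraries.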
